A study of Drosophila melanogaster with 2 samples.

Results

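The 73 protein-coding genes described here encode proteins of the mitochondrial ribosome in Drosophila melanogaster. They are the genes whose symbol starts with mRpL (47 genes, large subunit) or mRpS (26 genes, small subunit) followed by a digit, out of 13945 protein-coding genes on the chromosome arms and chromosome 4. The rule uses the names alone and no measured value. Binding of the CG1620 protein at these genes was read from a chromatin immunoprecipitation with sequencing (ChIP-seq) experiment. The material was whole adult females of unstated age from 1 transgenic line that stably expresses CG1620 with GFP at its C-terminus, and an antibody against GFP was used. The labels name neither the promoter of the transgene nor the number of flies in a sample. Biological replicates 2 and 3 of the labels make up the only group (n = 2), so no conditions were compared. Whole flies mix every tissue, so a peak cannot be given to a cell type.

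The mitochondrial ribosome translates the few messages that the mitochondrial genome encodes, all of which give subunits of the oxidative phosphorylation complexes. Its ribosomal RNAs are made inside the organelle, while its proteins are encoded in the nucleus, made in the cytosol and imported. Some of these proteins descend from bacterial ribosomal proteins and carry the bacterial numbers, and others were added later in evolution. Both genomes therefore contribute parts to this ribosome.

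The deposited values are lists of peaks on the dm6 genome build, each with a summit and a signal value, the score that the authors' peak caller gave the peak. The pooled list and the list of each replicate hold 30000 candidates, most of them weak. The authors kept 3894 peaks by the irreproducible discovery rate (IDR), a procedure that compares the ranks of peaks between replicates. All of them head the pooled list by signal, and the lowest signal among them is 70.0. A kept peak therefore need not rank high in both replicates. Sequencing depth is unknown, since the lists hold no read counts, so single signal values carry no error here. A gene was counted as having a promoter peak where a summit lay within 500 bp of one of its transcription start sites (TSSs).

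Of the 73 genes, 40 had an IDR peak at the promoter, a share of 54.8% (95% exact binomial interval 42.7 to 66.5%, counting error only). Among all protein-coding genes, these 73 included, the share was 26.3%. The large subunit had 27 of 47 genes with a peak (57.4%, interval 42.2 to 71.7%) and the small subunit 13 of 26 (interval 29.9 to 70.1%), and these intervals overlapped widely. Bacterial ribosomes have proteins numbered up to 36 in the large subunit and up to 21 in the small one. In the large subunit 16 of 28 genes numbered up to 36 and 11 of 19 above it had a peak, and in the small subunit 8 of 14 genes numbered up to 21 and 5 of 12 above it did. This split used the number in the symbol alone, so it need not match descent from bacterial proteins. The genes mRpL17, mRpL34, mRpL35, mRpS21 and mRpS26 had 2 IDR peaks each, so the 40 genes held 45 distinct peaks, and none of these peaks served 2 mitochondrial ribosomal protein genes.

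The counts by place in the ribosome cover only some of the genes and were not tested against each other. Among proteins near the peptidyl transferase centre, where peptide bonds form, mRpL2, mRpL16 and mRpL27 had a peak and mRpL3 did not. Of the 5 genes counted around the exit of the polypeptide tunnel, mRpL17, mRpL23 and mRpL24 had one and mRpL22 and mRpL45 did not. That group is not complete, and mRpL47, which had a peak, was not placed in it. Of the proteins of the stalk that contacts the translation factors and its base, mRpL10 and mRpL11 had one and mRpL12 did not, and neither did mRpL1, of the separate stalk at the exit side for tRNAs. As grouped here, 2 of 5 genes of the small subunit head had a peak (mRpS7 and mRpS10). Of the genes placed in its body and platform 6 of 9 did (mRpS2, mRpS6, mRpS11, mRpS16, mRpS17 and mRpS21). Placing mRpS2 with the body was a choice, and mRpS24 and mRpS31, which had a peak, were placed in neither group. These counts therefore give no contrast between head and body. The genes mRpS18A and mRpS30, whose mammalian counterparts sit on the large subunit, had none.

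The range of signal was wide. The strongest peak lay upstream of mRpL41, whose product is a large subunit protein with no bacterial counterpart (chr2R:15217585-15217934, intergenic, summit 137 bp upstream of the TSS). Its signal was 1406 in the pooled list (rank 3 of 30000), 965 in replicate 2 (rank 4) and 440 in replicate 3 (rank 3). It thus stood among the 4 strongest candidates of every list, and it was the only peak at these genes above a signal of 1000. No other coding TSS lay within 500 bp of its summit; the non-coding gene lncRNA:CR44463 did.

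**Figure D1:**
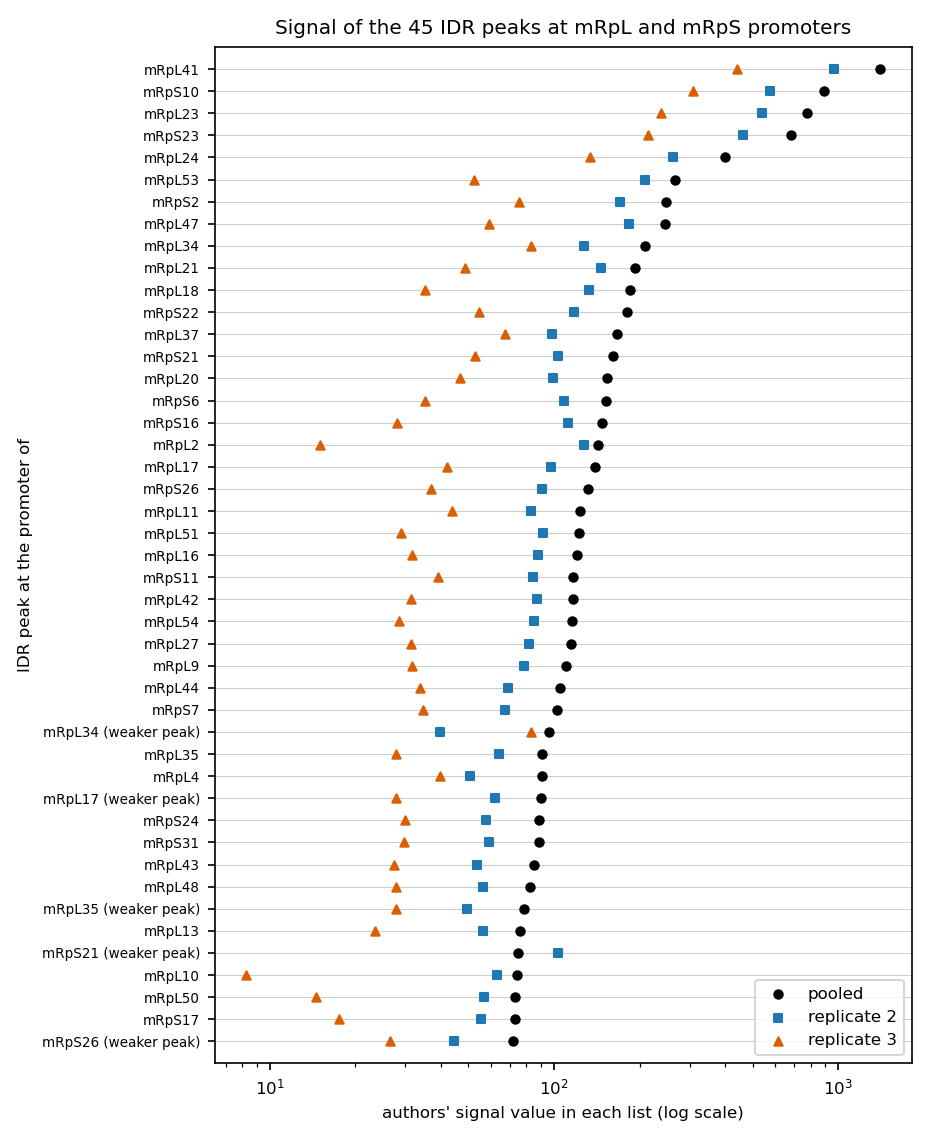
The authors' signal value (log scale, no unit) of the 45 IDR peaks at mRpL and mRpS promoters, 1 row per peak ordered by pooled signal, in the pooled list (circles), replicate 2 (squares) and replicate 3 (triangles). The pooled values run from 71.6 to 1406, and the values of replicate 2 lie right of those of replicate 3 in all peaks that have both but the weaker peak of mRpL34; the weaker peak of mRpS21 has no value in replicate 3.

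The next 4 peaks all lay at genes with a second coding gene starting nearby. At mRpS10, a protein of the small subunit head, the peak (chr3R:15229367-15229680, intergenic) had a signal of 890 in the pooled list (rank 20), 576 in replicate 2 (rank 24) and 309 in replicate 3 (rank 7). The summit lay 134 bp upstream of mRpS10 and 123 bp upstream of Art3, an arginine methyltransferase gene on the other strand, so it sat near the middle of the 257 bp between them. At mRpL23, a protein of the tunnel exit, the peak (chr3L:2373449-2373765) had a signal of 776 in the pooled list (rank 25), 537 in replicate 2 (rank 28) and 238 in replicate 3 (rank 24). Its summit was 45 bp downstream of the TSS, in the 5′ UTR of mRpL23, and CG9004 starts on the other strand 50 bp from mRpL23. Both replicates placed the mRpS10 and mRpL23 peaks among their 28 strongest.

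At mRpS23, a small subunit protein, the peak (chr2L:13835320-13835598, intergenic) had a signal of 681 in the pooled list (rank 36), 464 in replicate 2 (rank 43) and 214 in replicate 3 (rank 30). The summit was 383 bp from the TSS of mRpS23 and 109 bp from that of CenG1A, a GTPase-activating protein gene, so the neighbour was the nearer gene. At mRpL24, a tunnel exit protein, the peak (chr2L:4945362-4945615, intergenic) had a signal of 399 in the pooled list (rank 155), 263 in replicate 2 (rank 202) and 134 in replicate 3 (rank 98). Here too the summit was closer to the neighbour, with 76 bp to betaggt-I, which encodes a subunit of a geranylgeranyl transferase, and 142 bp to mRpL24.

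To show what these sites look like, the dm6 sequence of the summit base and the 50 bases on either side of it follows for 5 of the strong peaks, from the RefSeq assembly, on the strand of the mitochondrial ribosomal protein gene. Bases annotated as exon were left out, which shortens mRpS2 to 70 and mRpL47 to 41 bases; for mRpL23 only 14 were left, which are not shown. The windows of mRpL41 and mRpL53 are not shown either, and their motif matches are given with the motif counts. Capitals mark matches to the motif letters searched, which are spelled out further on: the 2 overlapping matches to the Ets core in mRpS2, and a match to the Pho core in mRpL47. The windows of mRpS10, mRpS23 and mRpL24 hold no match to any of them and are rich in A and T.
mRpS10 (chr3R:15229481-15229581, + strand): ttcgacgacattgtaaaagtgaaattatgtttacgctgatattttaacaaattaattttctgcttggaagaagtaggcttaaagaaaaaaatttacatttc
mRpS23 (chr2L:13835405-13835505, - strand): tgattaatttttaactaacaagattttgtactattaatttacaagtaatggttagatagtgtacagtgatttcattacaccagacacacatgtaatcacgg
mRpL24 (chr2L:4945453-4945553, - strand): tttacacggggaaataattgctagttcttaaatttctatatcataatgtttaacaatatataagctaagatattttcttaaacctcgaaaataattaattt
mRpS2 (chr2L:4850571-4850640, - strand): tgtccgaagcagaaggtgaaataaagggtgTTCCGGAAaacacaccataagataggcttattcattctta
mRpL47 (chr3R:9515966-9516006, - strand): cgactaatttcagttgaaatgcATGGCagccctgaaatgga

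For contrast, mRpL39 and mRpL40 had no candidate peak at the promoter in any list. The same length is given for them 119 bp upstream of the TSS, which is the median position of the summits at the bound genes; capitals in mRpL40 mark 2 matches to the Ohler 6 core.
mRpL39 (chr3L:14999735-14999835, - strand): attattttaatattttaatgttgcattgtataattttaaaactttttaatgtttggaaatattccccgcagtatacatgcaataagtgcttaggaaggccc
mRpL40 (chr3R:11407749-11407849, + strand): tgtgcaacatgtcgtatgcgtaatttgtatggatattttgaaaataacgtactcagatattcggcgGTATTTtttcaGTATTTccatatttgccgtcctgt

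The next 7 genes by signal also lay beside other coding genes. At mRpL53 (chr2R:13953965-13954364) the signal was 266 in the pooled list (rank 441), 208 in replicate 2 (rank 349) and 52.3 in replicate 3 (rank 897). Its summit lay in an intron of AGO1, the gene of the Argonaute protein that carries microRNAs, 30 bp upstream of mRpL53, and CG33155 shares the TSS of mRpL53. At mRpS2 the signal was 248 in the pooled list (rank 510), 171 in replicate 2 (rank 563) and 75.1 in replicate 3 (rank 427), and the summit lay 20 bp from Mon1, an endosome maturation gene, against 202 bp from mRpS2.

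At mRpL47 the signal was 245 in the pooled list (rank 526), 184 in replicate 2 (rank 486) and 59.2 in replicate 3 (rank 731). The summit lay in the 5′ UTR of CG8176 and Kdm3, a histone demethylase gene, and 108 bp upstream of mRpL47. At mRpL34 the stronger of its 2 peaks had a signal of 208 in the pooled list (rank 730), 128 in replicate 2 (rank 969) and 82.8 in replicate 3 (rank 343), between mRpL34 and Dg, the dystroglycan gene. These peaks ranked unevenly in the replicates: the mRpL53 and mRpL47 peaks were higher in the ranking of replicate 2, and the mRpS2 and mRpL34 peaks in that of replicate 3.

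At mRpL21, next to rept, which encodes the AAA ATPase reptin, the signal was 193 in the pooled list (rank 848), 147 in replicate 2 (rank 756) and 48.5 in replicate 3 (rank 1019). At mRpL18, next to Taz, which encodes tafazzin, the enzyme that remodels the mitochondrial lipid cardiolipin, it was 185 in the pooled list (rank 889), 133 in replicate 2 (rank 910) and 35.2 in replicate 3 (rank 1637). At mRpS22, next to CG5003, it was 180 in the pooled list (rank 927), 118 in replicate 2 (rank 1124) and 54.6 in replicate 3 (rank 844). The summit was nearer to the neighbour at mRpL21 and mRpL18 and nearer to the ribosomal protein gene at mRpS22. The weakest genes with an IDR peak were mRpL10 (pooled signal 73.9), mRpL50 (73.2) and mRpS17 (72.8), close to the lowest IDR signal of 70.0. The support for mRpL10 came mostly from replicate 2, where its candidate had rank 3089 and a signal of 63.2, while in replicate 3 it had rank 19491 and a signal of 8.28.

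As a set, the peaks resembled other promoter peaks in strength. Their median pooled signal was 120 (interquartile range 90.3 to 180, 45 peaks), against 120 (89.7 to 187) over the 2883 IDR peaks at promoters of coding genes, a ratio of 1.00. The ratio differed between the replicates' own lists by an SD of 0.0088 (n = 2). The median was 119 for the large subunit (30 peaks) and 131 for the small subunit (15 peaks). Peaks shared by at least 2 coding genes in the whole set had a median of 137. The share of genes with a peak was thus above that of all genes, while the median signal was close to that of all coding promoter peaks.

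The 2 replicates largely saw the same peaks. Of the 45 peaks, 44 overlapped a candidate of each replicate (97.8%, against 96.3% of all coding promoter peaks), and 35 overlapped a candidate among the 3894 strongest of both, as did 2175 of the 2883. Counted per gene, 34 of 73 had a promoter candidate among the 3894 strongest of both replicates (46.6%), against 21.3% of all genes. In this count the candidates of the 2 replicates did not have to overlap each other. Across the 44 peaks Spearman's rho between the replicates' signals was 0.69, against 0.72 over all coding promoter peaks; these are peaks of the same libraries and not independent samples. Dividing the signal of replicate 2 by that of replicate 3 gave a median of 2.24 (interquartile range 1.95 to 2.99), against 2.75 over all coding promoter peaks, on values that were not scaled between lists.

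The extremes of that ratio were 8.48 at mRpL2, a protein near the peptidyl transferase centre, and 0.48 at the weaker peak of mRpL34. The mRpL2 candidate had a signal of 128 (rank 972) in replicate 2 and 15.1 (rank 5254) in replicate 3. Where a gene had 2 peaks, the replicates did not always separate them. Both peaks of mRpL34 overlapped 1 candidate of replicate 3, and so did both peaks of mRpL35. The pair at mRpS21 overlapped 1 candidate of replicate 2, and the weaker of the pair had none in replicate 3. The 45 peaks therefore rested on 44 distinct candidates of replicate 2 and 42 of replicate 3.

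**Figure D2:**
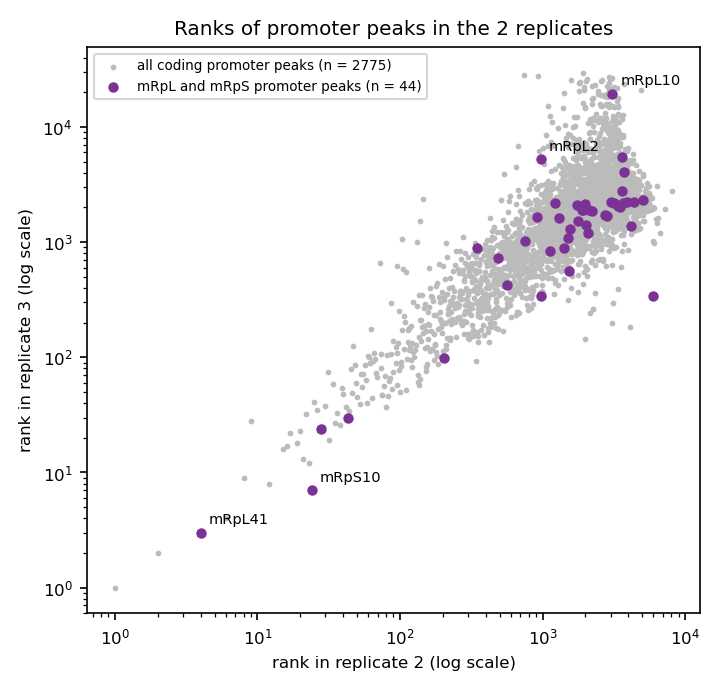
Rank of the overlapping candidate in replicate 2 (horizontal, log scale) and replicate 3 (vertical, log scale), 1 being the strongest, for the 44 mRpL and mRpS promoter peaks with a candidate in both replicates (purple) over all 2775 such coding promoter peaks (grey). The mitochondrial ribosomal protein peaks follow the grey cloud; mRpL41 and mRpS10 lie at the strong end, and mRpL2 and mRpL10 rank far lower in replicate 3 than in replicate 2.

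A shared promoter was the common arrangement. Of the 45 peaks, 41 (91.1%) had the TSS of another protein-coding gene within 500 bp of the summit, against 42.2% of all coding promoter peaks. In 39 of them the nearest other gene lay on the opposite strand, and in 2 it shared the strand and the start of mRpL13 (with CG10602) or mRpL53 (with CG33155). At mRpL53, AGO1 also starts on the opposite strand, 170 bp away. The peaks of mRpL4, mRpL9, mRpL10 and mRpL41 had no other coding gene in reach. A ChIP peak cannot say which of 2 neighbouring promoters it belongs to. The summit was nearer to the neighbour in 24 of the 41, nearer to the mitochondrial ribosomal protein gene in 15 and equally far in 2. Giving each peak to its nearest gene alone left 21 of the 73 genes with a peak (28.8%), against 18.9% of all genes.

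**Figure D3:**
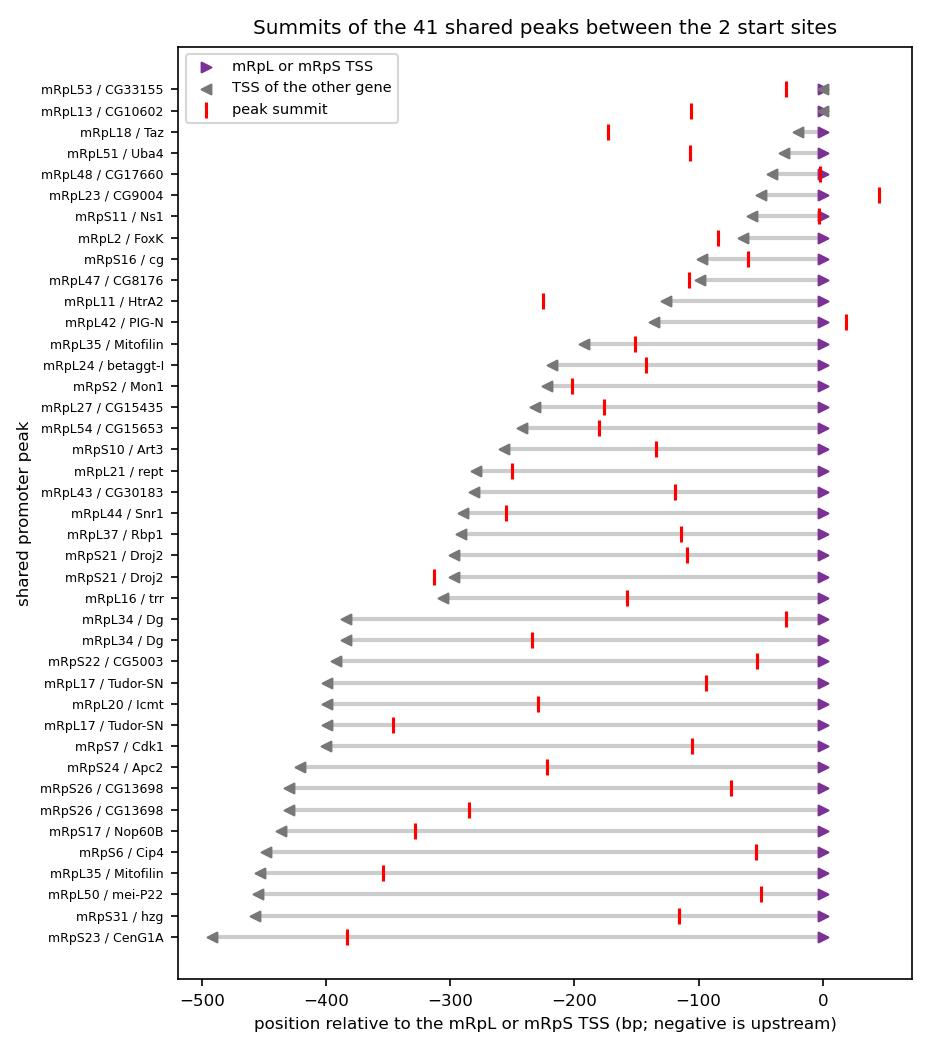
Positions (bp) of the summit (red bar) and of the neighbouring coding TSS (grey arrowhead) relative to the TSS of the mRpL or mRpS gene (purple arrowhead at 0, negative is upstream) for the 41 shared peaks, ordered by the distance between the TSSs. In 31 of the 41 peaks the summit lies between the starts, and in 10 it does not; the distance between the starts is at most 492 bp.

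The distance between the TSSs had a median of 290 bp over the 41 shared peaks. The neighbours had diverse functions. They included Cdk1 (the mitotic kinase, with mRpS7), trr (a histone methyltransferase, with mRpL16), Snr1 (a subunit of the Brahma remodelling complex, with mRpL44), Tudor-SN (with mRpL17) and Nop60B (the dyskerin homologue, with mRpS17). Products that work in mitochondria come from Mitofilin, which shapes the cristae (with mRpL35), HtrA2, a protease (with mRpL11), and Taz. Over all 45 peaks, 34 summits were intergenic, 10 lay in an annotated 5′ UTR, 8 of these being of the neighbour, and 1 lay in an intron. The summits lay upstream of the mitochondrial ribosomal protein gene in 43 of 45 peaks (95.6%), with a median of -119 bp. For all coding promoter peaks, each placed on its nearest TSS, 80.5% lay upstream. Counted over pairs of a gene and a peak as for these genes, the median position was -90 bp over all coding genes. To the nearest coding TSS of any gene the medians were 76 bp at these genes and 74 bp at all coding promoter peaks.

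Because paired promoters were so common here, the genes were also compared with others of the same arrangement. This split was added after values had been seen. A divergent partner was defined as a coding TSS on the other strand, at most 500 bp upstream, whether bound or not. Of the 73 genes 53 had one (72.6%, interval 60.9 to 82.4%), against 27.4% of all coding genes, and the median gap was 264 bp against 244 bp. Among genes with a divergent partner, 35 of 53 had an IDR peak (66.0%, interval 51.7 to 78.5%), against 54.0% of all such genes. Among genes without one, 5 of 20 did (mRpL4, mRpL9, mRpL10, mRpL13 and mRpL41; interval 8.66 to 49.1%), against 15.8%. Both all-gene shares lie inside the intervals of the mitochondrial ribosomal protein genes. The 54.8% of the 73 genes compares with 43.6% when the all-gene shares are weighted by the arrangement of the 73 genes, a value inside the interval of 42.7 to 66.5%.

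**Figure D4:**
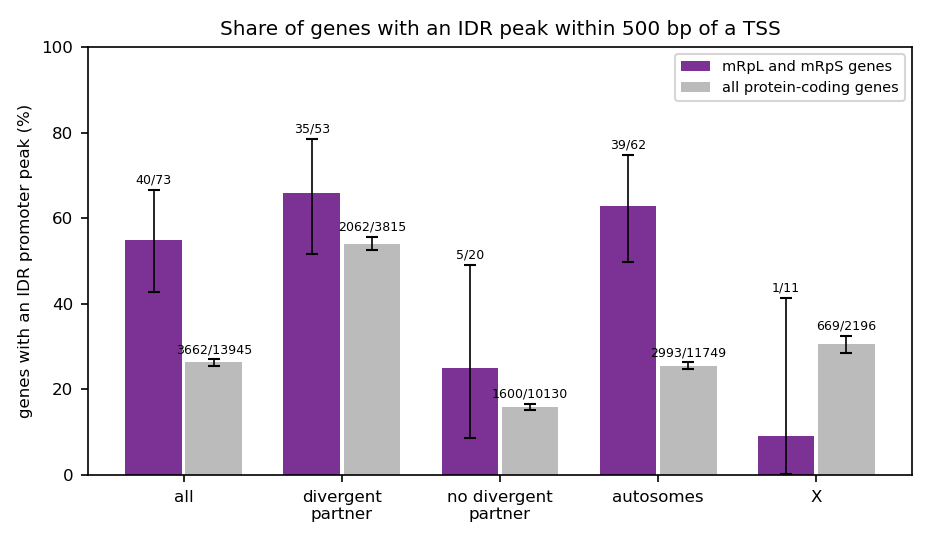
Share of genes with an IDR promoter peak (%), as bars from 0 with 95% exact binomial intervals and counts above them, for mRpL and mRpS genes (purple) and all protein-coding genes (grey), for all genes, by divergent partner and by chromosome. The purple bars are higher in every pair but that of the X chromosome, where 1 of 11 genes has a peak.

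The genes on the X chromosome differed from the autosomal ones in the count. Only mRpL16, which shares its peak with trr (pooled signal 120), had an IDR peak among the 11 X-linked genes (9.09%, interval 0.23 to 41.3%), against 30.5% of all X-linked coding genes, a share inside that interval. On the autosomes 39 of 62 genes had one (62.9%, interval 49.7 to 74.8%), against 25.5% of all autosomal genes. By arm the counts were 10 of 12 on 2L, 9 of 12 on 2R, 9 of 17 on 3L and 11 of 21 on 3R. A divergent partner was present at 7 of the 11 X-linked and 46 of the 62 autosomal genes. Of these, 1 of 7 on X had a peak (14.3%, interval 0.36 to 57.9%). The share of all X-linked genes with a partner, 57.4%, lies just inside that interval. On the autosomes 34 of 46 genes with a partner had a peak (73.9%, interval 58.9 to 85.7%), against 53.5%, which lies below that interval. Of the autosomal genes without a partner 5 of 16 had a peak (31.2%, interval 11.0 to 58.7%), against 14.8%. All 11 X-linked genes had a weaker pooled candidate or the peak of mRpL16, with a median strongest signal of 43.0 (19.0 to 120). Over the 57 autosomal genes with a candidate the median was 102, while among all coding genes it was 68.8 on X (1370 genes) and 62.0 on the autosomes (6649 genes).

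**Figure D5:**
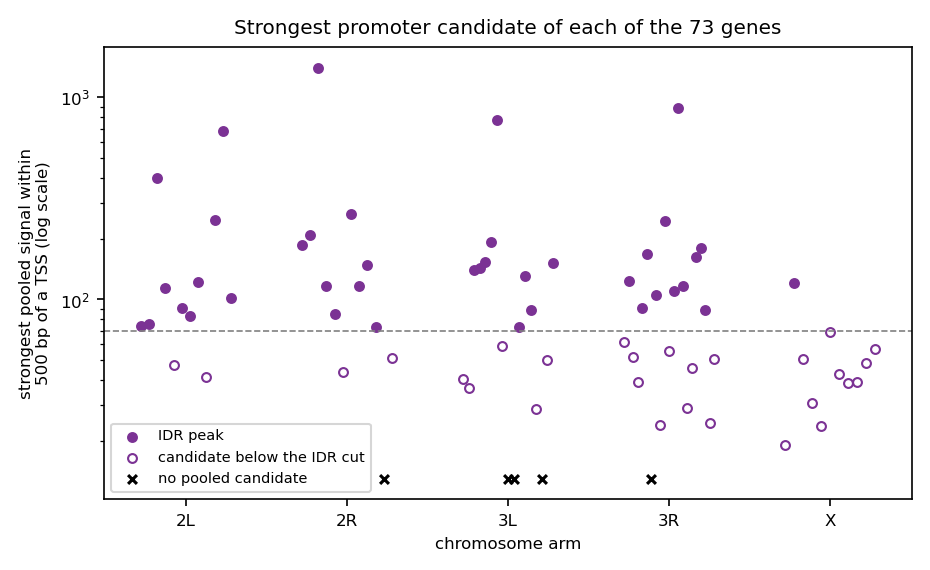
Strongest pooled signal within 500 bp of a TSS (log scale, no unit) for each of the 73 genes by chromosome arm; filled points are IDR peaks, open points are candidates below the lowest IDR signal of 70.0 (dashed line), and crosses at the bottom mark the 5 genes with no pooled candidate. On X, 10 of 11 points are open, and mRpL16 lies above the line.

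Most genes without an IDR peak still had a weak candidate. Of the 33 such genes, 28 had a pooled candidate at the promoter (84.8%, interval 68.1 to 94.9%), against 42.4% of all coding genes without an IDR peak; among those with a divergent partner it was 15 of 18 (83.3%, interval 58.6 to 96.4%), against 66.1%, and among those without one 13 of 15 (86.7%, interval 59.5 to 98.3%), against 37.5%. Their signals had a median of 43.4 (19.0 to 69.4), against 36.1 over the 4357 coding genes with such a candidate. The strongest were at mRpL33 (69.4), mRpL1 (61.3), mRpL36 (58.6), mRpS30 (56.8) and mRpL55 (55.8). Divergent partners were norpA, a phospholipase C gene, for mRpL33, CG9626 for mRpL1 and Paf-AHalpha for mRpS30. That of mRpL55 was ATPsynD, an ATP synthase subunit gene, and mRpL36 had none. The pooled summit at mRpL33 lay at -395 bp, with a gap of 395 bp to the norpA TSS. At mRpS30 it lay at -460 bp, with a gap of 464 bp to the Paf-AHalpha TSS. Both summits were therefore at or near the start of the partner. The pooled signal of mRpL33 thus lay just under the lowest IDR signal; the strongest candidate of replicate 2 at this promoter had rank 3293 and lay at nearly the same place (-391 against -395 bp from the TSS), while that of replicate 3 had rank 16471 and lay at -54 bp.

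With IDR peaks counted in, 68 of the 73 genes had a pooled candidate (93.2%), against 57.5% of all coding genes, and 62 had a candidate in both replicates (84.9%), against 44.5%. The latter count did not require the candidates of the 2 replicates to overlap, so it is not a count of reproduced sites. At mRpL22, for example, the strongest candidate lay at -493 bp in replicate 2 and at 39 bp in replicate 3. The 5 genes without a pooled candidate were mRpL39, mRpL40, mRpL46, mRpS28 and mRpS35. Of these, mRpL46 had a weak candidate in replicate 3 alone, mRpS35 one in each replicate, and mRpL39, mRpL40 and mRpS28 had none in any list. Of these last 3, mRpL39 and mRpS28 have a divergent partner, mRpL39 with the proteasome subunit gene Prosbeta2 and mRpS28 with CG5323.

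Matches to motifs known from Drosophila promoters were counted around the summits. Some shares lay below and some above those of all coding promoter peaks, and no difference was tested. Within 50 bp of the summit on either strand, the DRE TATCGATA had a match in 1 of the 45 peaks (2.22%), against 5.93% of all coding promoter peaks. Its shorter core CGATA had a match in 8 (17.8%, against 30.5%; every DRE match is also one of these). The Ohler 6 core GTATTT matched in 4 (8.89%, against 14.0%), the GAGA-factor letters GAGAG in 1 (2.22%, against 10.6%) and the Ets core CCGGAA in 1, at mRpS2 (2.22%, against 2.88%). The Ohler 1 core GGTCACACT matched in 3 (6.67%, against 2.95%), and the Pho core GCCAT in 6 (13.3%, against 17.0%). TATAAA was found in 7 (15.6%, against 15.2%). The window of mRpL41, the strongest peak, held matches to the Ohler 6 and Pho cores, and that of mRpL53 held 2 matches to CGATA and 1 to AACACTG. The letters AACACTG, chosen after the letters common to all IDR peaks had been seen, matched in 4 (8.89%, against 6.97%). The E-box letters CAGCTG matched in 2 (4.44%, against 7.91%) and another E-box, CACGTG, in 2 as well (4.44%, against 1.35%). The NRF-1/Ewg letters GCGCATGCG, searched because the vertebrate factor NRF-1 acts on genes of mitochondrial function, the letters TGACGTCA and the letters AACCCCC had no match, against 0.0694%, 0.208% and 0.694% of all coding promoter peaks in that order.

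The same windows were low in G and C, with a median content of 32.7%, against 39.6% for all coding promoter peaks and 36.6% for those shared by at least 2 coding genes. Mitochondrial ribosomal protein genes without an IDR peak had 27.7% at the median position of the summits, against 36.6% for all coding genes without one. The part of base composition in the motif counts was not tested.

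Other genes that serve mitochondrial gene expression and protein import were counted in the same way. Over 61 genes in 5 lists 20 had an IDR promoter peak (32.8%, interval 21.3 to 46.0%). The share of all coding genes, 26.3%, lies inside that interval. A divergent partner was present at 45.9% of the 61 genes, against 27.4% of all coding genes. Of the 2 mitochondrial ribosomal proteins with other symbols, tko (ribosomal protein S12 of the organelle, on X) had a peak with a signal of 98.7 and bonsai had none. Mitochondrial translation factors had 3 of 9, or 33.3% (mEFTu1 79.8, mRF1 78.2 and mEFTu2 74.4). Mitochondrial aminoacyl-tRNA synthetases, which charge the organelle's tRNAs, had 3 of 15, or 20.0% (PheRS-m 177, LeuRS-m 120 and ArgRS-m 112). Protein import had 3 of 17, or 17.6% (Tom7 165, Tim9a 150 and Tim10 120). The 26.3% of all coding genes lies inside the exact binomial intervals of the last 3 lists.

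Transcription and RNA processing in mitochondria had the highest share of these lists with 10 of 18 genes (55.6%, interval 30.8 to 78.5%), against 26.3% of all coding genes. A divergent partner was present at 66.7% of these 18 genes. Its strongest peak was at SLIRP2, a homologue of the mammalian partner of the RNA-stabilising protein LRPPRC, with a pooled signal of 657 (rank 40), shared with the kinase gene Mkk4. SLIRP1 followed with 220 and RNaseZ, the enzyme that trims the 3′ ends of tRNAs, with 152. Nuclear genes for oxidative phosphorylation, taken by symbol and with Sdhaf3, an assembly factor gene, among them, had a peak in 31 of 88 (35.2%, interval 25.3 to 46.1%). The 26.3% of all coding genes lies inside that interval, and 44.3% of the 88 genes had a divergent partner. Cytoplasmic ribosomal protein genes, taken by symbol, had one in 76 of 93 (81.7%, interval 72.4 to 89.0%), with a median signal of 219 and a divergent partner in 39.8%. The mitochondrial ribosomal protein genes, at 54.8%, stood between these lists, with an interval that overlapped that of the oxidative phosphorylation genes and not that of the cytoplasmic ribosomal protein genes. No difference between lists was tested.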

How the data were processed

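The authors deposited peak lists on the dm6 build from 2 anti-GFP ChIP-seq replicates, with 1 list per replicate, a pooled list and an optimal IDR set; each peak carries a signal value of the authors' peak caller, not scaled between lists, with aligner, caller, IDR threshold and versions not given in the sources used here. The dm3 lists and the control were not used here. Depth is unknown. Start sites came from Ensembl release 115 (BDGP6, 17896 genes) and sequence from the RefSeq assembly of the same release; 99.8% of 30593 annotated start codons read ATG in it, and 0 peak ends lay beyond a chromosome. Coordinates are 1-based. Replicate candidates were matched where the overlap covered 50% or more of either one. Shares have Clopper-Pearson intervals; no p-value was computed, since the 2 replicates form 1 group. Calculations used Python 3.11.15, pandas 2.3.3, numpy 2.4.6 and scipy 1.17.1, and were checked on simulated peaks. The members and lists were chosen with earlier results of these data known. Values were given in full for the 12 genes with the strongest peaks, and pooled signals for the weakest 3, the strongest 5 candidates below the IDR set and the strongest 3 of each related list; mRpL2 and the genes named as neighbours were chosen after their values were seen. Alternatives were windows of 250 and 1000 bp, the 1947 strongest IDR peaks, each replicate alone, the nearest gene alone, any overlap with a TSS, other motif windows and a 1 bp overlap of candidates.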

Additional observations from a re-analysis of the deposited data

How the results depend on the processing

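Of 62 alternatives, 44 stayed within limits and 18 moved. Most results were counts or shares, which cannot change sign, so reversals were not read. The limit was 1.5 times for counts, 1 SD between replicates for the signal ratio and the summit position, and the 95% binomial interval for shares of genes with a divergent partner. For the ratio and the position, that SD came from the same 2 values as the alternatives that left out 1 replicate. For those alternatives the limit was therefore no independent check. Limiting the IDR set to its 1947 strongest peaks left 26 of the 73 genes with a promoter peak, 17 of them in the large subunit. That was 35.6%, against 15.7% of all genes. These genes kept 26 peaks, 25 of them shared and all 26 with a candidate in both replicates. The limit was on counts, so sharing moved in number although nearly all peaks left were shared. The same setting left 10 related mitochondrial genes, 0 peaks with a DRE and a signal ratio of 0.92. Giving each peak to its nearest gene alone left 21 genes, 14 large and 7 small. At 250 bp, 26 peaks were shared, again a count and not a share. The signal ratio ran from 1.02 to 1.03 when 1 replicate was left out, and the DRE count from 0 to 1; the DRE count was 3 within 100 bp and 0 within 25 bp. Leaving out a replicate gave 39 to 40 genes with a peak. Defining divergent partners at 250 or 1000 bp (added after the data were seen) gave 64.0 and 63.8% for the mitochondrial ribosomal protein genes, against 51.4 and 48.4% of all genes, both outside the narrow interval of the all-gene share. No paired analysis was possible because the 2 replicates form 1 group. Beyond the construction of each alternative, the causes were not tested. Depth is unknown and the control was not used here, so weak candidates cannot be told from background.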

Other observations

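Peaks outside the 500 bp windows were also seen near these genes. Of the 33 genes without an IDR promoter peak, 9 had an IDR summit elsewhere in the gene or within 2000 bp of either of its ends. Of the 40 genes with one, 15 had a further IDR summit in that range. The same counts were not made over all coding genes, so they cannot be read as a trait of these genes.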
